A study of Mus musculus with 10 samples.

Results

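The nuclear genes for the subunits of respiratory complexes II, III, IV and V and for cytochrome c were followed in mouse liver after napabucasin. They were chosen by symbol, as the protein-coding genes Sdha to Sdhd, those whose names start with Uqcr, Cyc1, Cycs, those that start with Cox4 to Cox8, and those that start with Atp5. The rule found 50 of the 54532 genes in the count table, 4 for complex II, 9 for complex III, 1 for cytochrome c, 18 for complex IV and 18 for complex V. One symbol, Atp5o, stands on 2 rows, so there are 49 symbols. RNA was sequenced from whole liver in 2 groups of 5 mice, each library being called a biological replicate in the labels. Napabucasin (BBI608), a small quinone compound known as a STAT3 inhibitor, was given by gavage once a day at 20 mg per kg body weight for 7 days. Vehicle mice had 1% sodium carboxymethyl cellulose (NaCMC) by the same route over the same 7 days. Strain, sex and age are not given in the labels, and nothing else is said to be shared by the groups.

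Complex II (succinate dehydrogenase) is a tricarboxylic acid cycle enzyme and passes electrons from succinate to ubiquinone. Complex III moves them from ubiquinol to cytochrome c, complex IV (cytochrome c oxidase) moves them from cytochrome c to oxygen, and complex V (ATP synthase) uses the resulting proton gradient to make ATP. Complex II is encoded by nuclear genes alone, whereas complexes III, IV and V also hold subunits encoded in mitochondrial DNA. In hepatocytes this chain supplies the ATP for gluconeogenesis and urea synthesis.

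Library totals were 15364342 to 17369118 counts in napabucasin and 14124484 to 17759967 counts in vehicle livers. Mitochondrially encoded genes held 19.9%, 15.3%, 10.3%, 9.03% and 11.4% of the counts in napabucasin replicates 1 to 5, against 19.0%, 7.08%, 7.04%, 8.78% and 7.03% in vehicle replicates 1 to 5. Ribosomal RNA genes held 1.09% in napabucasin replicates 1 and 2 and 0.426% to 0.455% in the other napabucasin libraries, against 0.912% in vehicle replicate 2 and 0.195% to 0.431% in the other vehicle libraries. Most of this was mitochondrial ribosomal RNA, at 0.917%, 0.908% and 0.823% in napabucasin replicates 1 and 2 and vehicle replicate 2. Most of the ribosomal share is thus also counted in the mitochondrial share, but the 2 shares did not always go together. Vehicle replicate 1 had 19.0% mitochondrial and 0.347% ribosomal counts, and vehicle replicate 2 had 7.08% and 0.912%. Nuclear ribosomal RNA held 0.178%, 0.180% and 0.0892% in those libraries, and 0.0864% in vehicle replicate 3. Napabucasin replicate 1 and vehicle replicate 1 therefore stand apart by mitochondrial share, and napabucasin replicates 1 and 2 and vehicle replicate 2 by ribosomal share, so the main results are also given without them. The tissue label was checked on 10 hepatocyte genes (Alb, Apob, Cps1 and others), all detected, with a summed level of 78826 to 137868 CPM (counts scaled to a common library total) in napabucasin and 56110 to 167133 CPM in vehicle livers. Values are CPM on TMM-scaled library sizes, with replicates 1 to 5 in order, and log2 fold changes are napabucasin over vehicle, so a negative value is a lower level in napabucasin livers.

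Of the 50 genes, 43 had enough counts to be tested, and every one of the 43 had a lower fitted level in napabucasin livers than in vehicle livers. Their log2 fold changes ran from -0.87 for Sdhd to -0.00 for Cox7a1, with a median of -0.43, beside a median of 0.00 over all 14244 genes tested, of which 49.9% had a log2 fold change below 0. Scaling by library size alone left 40 of the 43 below 0. None of the 43 differed at an adjusted p under 0.05 in edgeR's quasi-likelihood test, where 0% of all genes did. None did in DESeq2, which called 1.42% of the 14702 genes to which it gave an adjusted p. At an unadjusted p under 0.05, 11 of the 43 were lower in edgeR, against 5.83% of all 14244 genes tested. In DESeq2 13 were lower, against 4% of 26539 genes, a wider set that also holds genes with low counts. In edgeR 0 of the 43 were higher at that p, against 9.34% of all genes. No gene of the set had groups that did not overlap in CPM, where 0.934% of all genes were lower and 1.21% higher without overlap. The 43 genes share a direction with no single gene past the adjusted threshold, and they share the same libraries, so they are not independent of each other. The share of all counts that the 50 genes held was 0.647% ± 0.176 in napabucasin and 0.806% ± 0.0391 in vehicle livers (SD, n = 5 each). It was 0.353% in napabucasin replicate 1 and 0.616% to 0.773% in the other napabucasin livers. Of the counts outside mitochondrially encoded genes, the 50 genes held 0.738% ± 0.175 in napabucasin and 0.896% ± 0.0746 in vehicle livers (SD, n = 5 each).

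**Figure D1:**
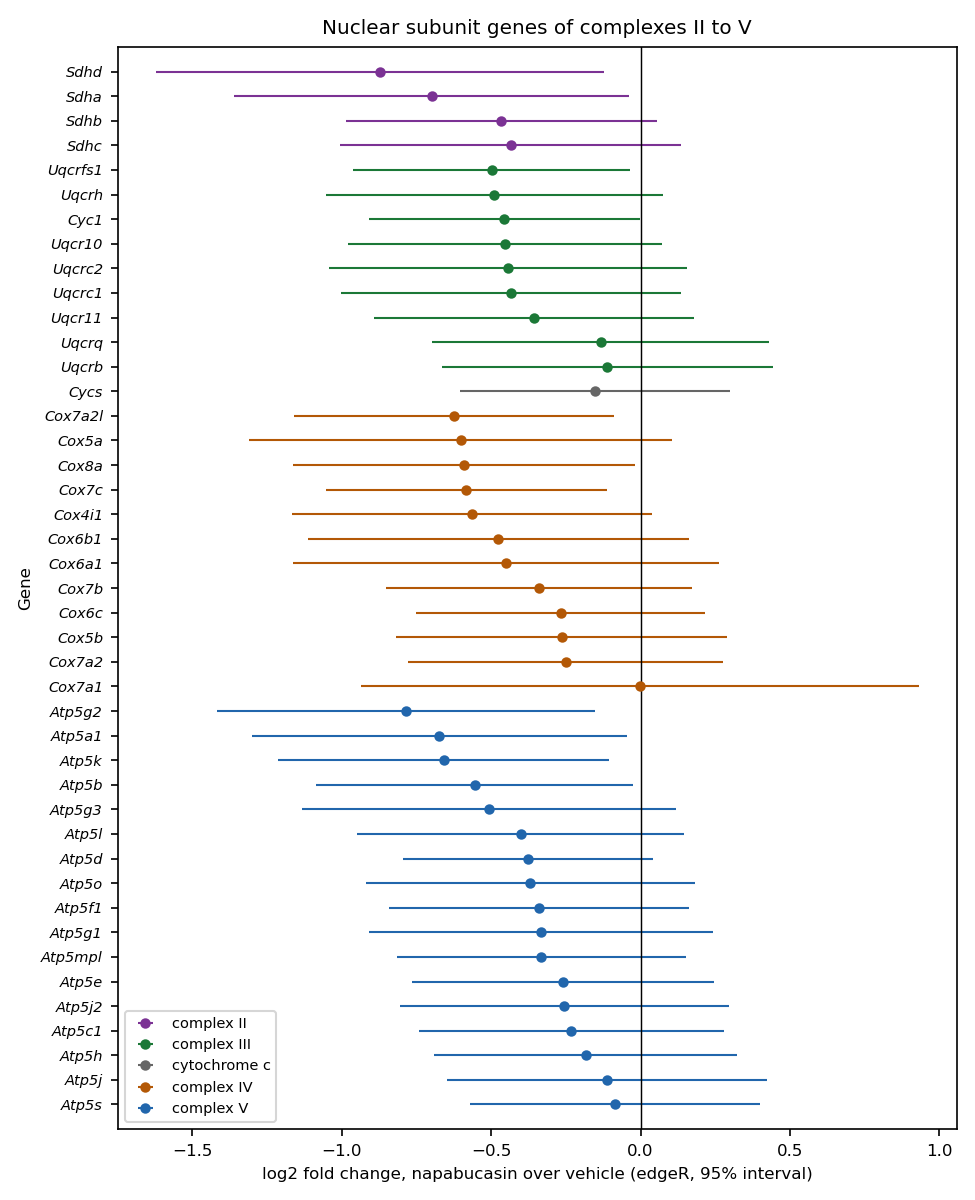
Log2 fold change, napabucasin over vehicle, of the 43 tested genes, with the gene on the y axis and the 95% confidence interval of the edgeR fit as the bar; colour marks the complex. All points lie at or left of 0, from -0.87 for Sdhd to -0.00 for Cox7a1, and most intervals cross 0.

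One library carried much of the size of this difference. Napabucasin replicate 1 was the lowest of the 10 libraries for 40 of the 43 genes, where it was the lowest for 22.6% of all genes tested. Its CPM was a median of 0.521 times the mean of the other 4 napabucasin livers, with a range of 0.291 to 1.49 times. Vehicle replicate 1 was the highest of the 10 libraries for 27 genes. Among the vehicle libraries alone it was the highest for those 27, where it was so for 27.2% of all genes, and the lowest for Sdha, Cox7a2l and Atp5g2, where it was so for 26.8%.

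Without napabucasin replicate 1, 41 of 43 genes stayed below 0, with a median of -0.24 and 3 genes at an unadjusted p under 0.05, where 51.9% of all genes were below 0 and 4% were lower at that p. Without napabucasin replicates 1 and 2, 40 of 43 were below 0 with a median of -0.16, and 0 passed the unadjusted threshold, where 53.6% of all genes were below 0 and 2.32% passed lower. Without vehicle replicate 1 alone, 36 of 43 were below 0 and 7 above, with a median of -0.32, and 8 passed. In that fit 7170 of all 14520 genes were below 0 and 1198 passed lower. Leaving out replicate 1 of both groups put 33 of 43 below 0 with a median of -0.16, and 4 genes passed, against 49.3% of all genes below 0 and 6.53% passing lower. Without vehicle replicate 2, the lowest vehicle library over the set, all 43 were below 0 with a median of -0.50, and 15 passed, against 6.6% of all genes passing lower. The count of 11 was 2 without napabucasin replicate 2 (3.17% of all genes in the same fit), 4 without napabucasin replicate 3 (4.97%) and 18 without napabucasin replicate 5 (6.25%). It was 2 without vehicle replicate 3 (3.59%), 6 without vehicle replicate 4 (3.99%) and 2 without vehicle replicate 5 (3.15%). With replicate number as a block the count was 15, where 8.81% of all genes were lower, and 42 of 43 genes were below 0, against 49.8% of all genes. The labels do not say that equal numbers mark pairs. Read by replicate number, 19 of the 43 genes were lower in napabucasin in all 5 same-numbered pairs, against 9.72% of all genes.

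**Figure D2:**
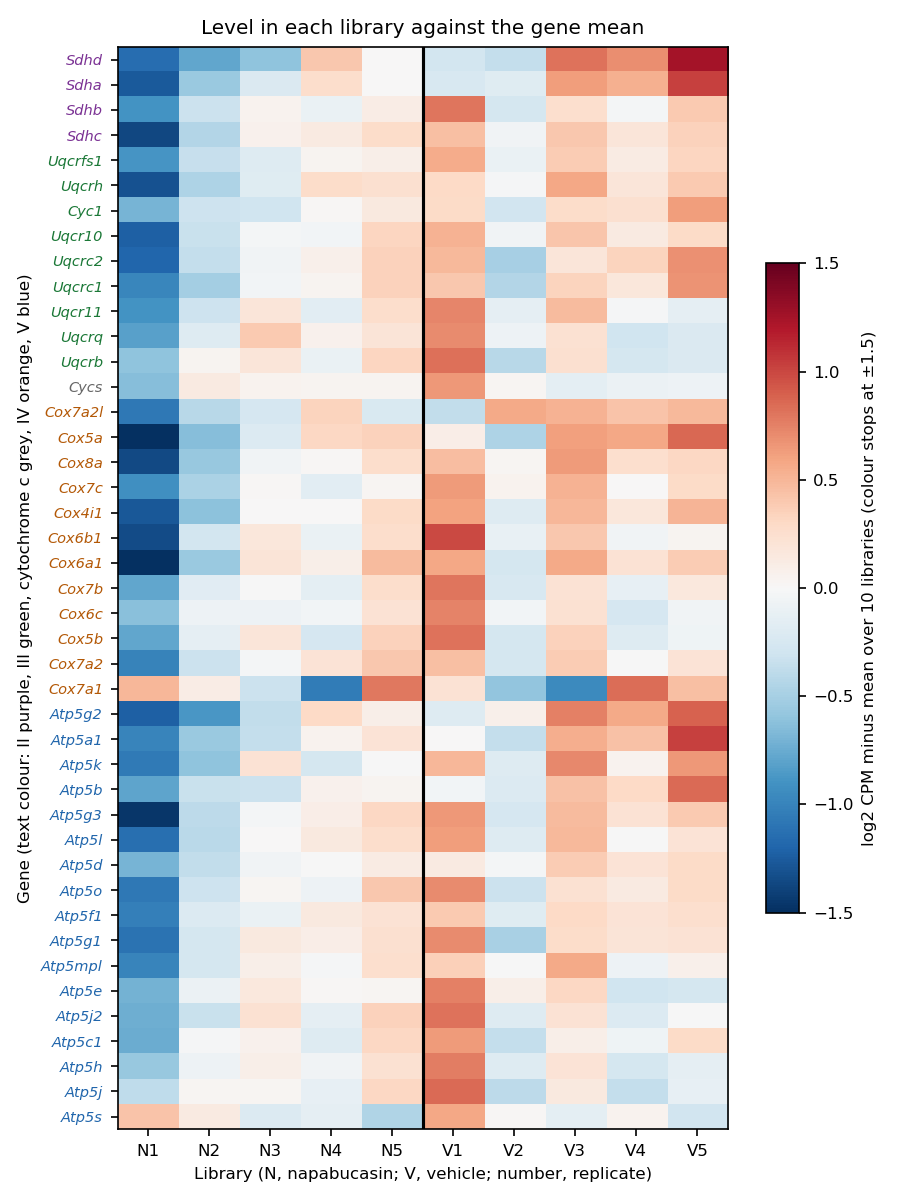
Level of each of the 43 tested genes (y axis) in each library (x axis; N, napabucasin; V, vehicle), as log2 CPM minus the gene's mean over the 10 libraries, with blue below and red above that mean. The N1 column is the lowest for 40 genes and the V1 column the highest for 27, while the complex II genes Sdha and Sdhd are highest in V5.

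The promoters of the 4 genes with the lowest log2 fold changes and of the 2 nearest to 0 are shown because many of these genes are known targets of NRF1 and of the ETS factor GABP, which drive nuclear genes of oxidative phosphorylation. They were taken among tested genes with a promoter window and a mean FPKM of at least 10. Sequences are from RefSeq on GRCm38.p6, all on the minus strand, 5′ to 3′, from 110 bases before the annotated start to 30 from it on. Capitals mark the NRF1 letters, GCGCA, any base and GCGC, or their reverse complement, and the ETS letters CCGGAAG or CTTCCGG, both searched on both strands. The 4 lowest come first, then Cycs and Atp5j.
Sdhd, chr9:50603820-50603959: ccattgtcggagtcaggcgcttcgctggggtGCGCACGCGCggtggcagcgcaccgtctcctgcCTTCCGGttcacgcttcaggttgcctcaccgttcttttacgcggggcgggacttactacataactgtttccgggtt
Atp5g2, chr15:102671018-102671157: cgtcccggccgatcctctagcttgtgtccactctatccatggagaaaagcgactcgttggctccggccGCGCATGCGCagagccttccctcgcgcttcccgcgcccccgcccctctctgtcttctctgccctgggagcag
Sdha, chr13:74350211-74350350: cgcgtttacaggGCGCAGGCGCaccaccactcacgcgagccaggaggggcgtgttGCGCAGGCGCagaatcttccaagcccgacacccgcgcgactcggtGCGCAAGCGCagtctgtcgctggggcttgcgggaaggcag
Atp5k, chr5:108434370-108434509: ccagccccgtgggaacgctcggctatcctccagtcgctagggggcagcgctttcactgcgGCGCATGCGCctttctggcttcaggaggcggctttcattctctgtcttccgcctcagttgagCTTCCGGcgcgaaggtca
Cycs, chr6:50566540-50566679: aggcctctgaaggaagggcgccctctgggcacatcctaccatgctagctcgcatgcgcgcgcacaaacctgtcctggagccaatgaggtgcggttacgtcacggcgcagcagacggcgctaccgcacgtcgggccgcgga
Atp5j, chr16:84835596-84835735: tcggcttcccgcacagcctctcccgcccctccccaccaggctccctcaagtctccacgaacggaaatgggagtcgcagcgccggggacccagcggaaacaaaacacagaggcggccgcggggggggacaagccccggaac

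The NRF1 letters began 79 bases before the start of Sdhd, 42 before that of Atp5g2, 98, 55 and 10 before that of Sdha and 50 before that of Atp5k. The ETS letters began 46 bases before the start of Sdhd and 12 after that of Atp5k. No overlap of the 2 motifs is seen in these windows, and neither set of letters is in the Cycs or Atp5j stretch. Only exact letters were searched, so their absence does not show that a gene lacks a site. The Cycs stretch holds tcgcatgcgc, which differs from the NRF1 letters by 1 base. A window of 250 bases before to 50 after the start was matched for 35 of the genes. The NRF1 letters were in 9 of the 35 (25.7%), against 4.60% of all 32851 RefSeq windows of that length, in which a gene can have more than 1 window. The ETS letters were in 11 (31.4%), against 8.86% of all windows. The YY1 letters AAGATGGC were in 1 (2.86%), against 2.75% of all windows, and the SP1 letters GGGCGG in 13 (37.1%), against 35.7%. Of the tested genes with a window, the 9 with the NRF1 letters had a median log2 fold change of -0.51 and the 23 without them one of -0.38. Their ranges overlapped, from -0.87 to -0.18 with the letters and from -0.62 to -0.00 without them. The medians for the ETS letters were -0.47 over 11 genes with them and -0.38 over 21 without. For the SP1 letters they were -0.47 over 11 genes and -0.40 over 21. The 1 gene with the YY1 letters was at -0.26, and the 31 without had a median of -0.45.

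Complex II had the lowest median of the complexes, -0.58 over its 4 genes, with 2 of them at an unadjusted p under 0.05. Sdhd (chromosome 9, 50596357 to 50603812), a membrane anchor of the complex, had 42.6, 54.7, 61.8, 124 and 94.4 CPM in napabucasin livers, against 77.6, 73.5, 165, 152 and 223 CPM in vehicle livers. Napabucasin replicates 1 to 3 were under every vehicle value, replicates 4 and 5 lay among them, and each was under the vehicle replicate of its own number. The log2 fold change of Sdhd was -0.87 with an SE of 0.35 and a 95% interval of -1.62 to -0.12 (unadjusted p = 0.0258, adjusted p = 0.293, edgeR). Sdha, the flavoprotein that oxidizes succinate, had 85.2, 139, 175, 244 and 205 CPM in napabucasin livers, against 173, 179, 315, 296 and 414 CPM in vehicle livers. Vehicle replicates 1 and 2 were as low as the middle of the napabucasin group, and replicates 3, 4 and 5 were above all of it. Its log2 fold change was -0.70 ± 0.31 (SE), with an unadjusted p of 0.0398 and an adjusted p of 0.316.

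The other 2 genes of complex II had a different vehicle pattern. Sdhb, the iron-sulfur subunit that carries electrons on from the flavoprotein, had 82.8, 124, 160, 144 and 166 CPM in napabucasin livers, against 269, 129, 183, 151 and 203 CPM in vehicle livers. Sdhc, the other membrane anchor, had 55.2, 105, 148, 156 and 172 CPM in napabucasin livers, against 194, 137, 187, 161 and 180 CPM in vehicle livers. In both, vehicle replicate 1 was the highest library and napabucasin replicates 3 to 5 lay inside the vehicle range. The log2 fold changes were -0.47 ± 0.24 for Sdhb (unadjusted p = 0.0752) and -0.43 ± 0.27 for Sdhc (unadjusted p = 0.125), SE each.

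Sdhd and Sdha changed little when replicate 1 of both groups was left out together. In that edgeR fit Sdhd had a log2 fold change of -0.87 (unadjusted p = 0.0246) and Sdha one of -0.66 (unadjusted p = 0.0296). Without napabucasin replicate 1 alone Sdhd had -0.73 (unadjusted p = 0.0620) and Sdha -0.54 (unadjusted p = 0.0798). Without napabucasin replicates 1 and 2 they had -0.58 (unadjusted p = 0.163) and -0.41 (unadjusted p = 0.20). With the replicate block the unadjusted p was 0.00164 for Sdhd and 0.00374 for Sdha (edgeR). In that fit 8.81% of all genes were lower at an unadjusted p under 0.05. All 4 complex II genes were lower in napabucasin in all 5 same-numbered pairs, against 9.72% of all genes. Both results rest on reading equal numbers as pairs, which the labels do not state. The complex II median was -0.43 without napabucasin replicate 1, -0.33 without napabucasin replicates 1 and 2 and -0.43 without replicate 1 of both groups. Summed over the 4 genes, complex II FPKM was 106, 163, 210, 268 and 250 in napabucasin livers, against 280, 199, 348, 310 and 433 in vehicle livers.

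**Figure D3:**
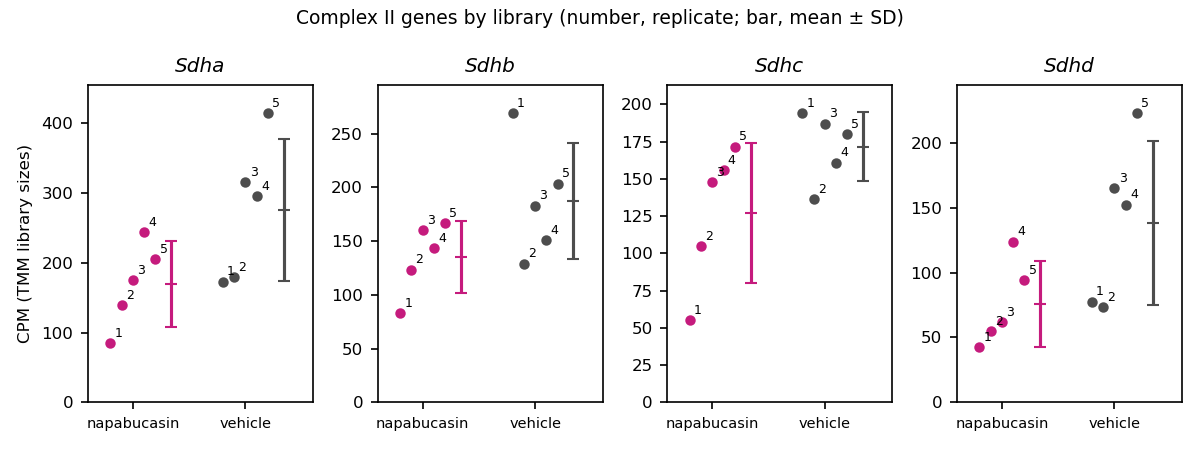
CPM of the 4 complex II genes in each library (y axis), with the replicate number beside each point and the mean ± SD as the bar, napabucasin in pink and vehicle in grey. Vehicle replicate 1 is the top point for Sdhb (269 CPM) and Sdhc (194 CPM) but not for Sdha and Sdhd, where vehicle replicate 5 is (414 and 223 CPM).

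Complex III had a median log2 fold change of -0.44 over 9 tested genes, 2 of them at an unadjusted p under 0.05. Those 2 are the nuclear genes among those for its catalytic redox subunits. The median was -0.28 without napabucasin replicate 1 and -0.22 without replicate 1 of both groups, with 0 genes at that p in either. The mitochondrially encoded subunit of complex III, mt-Cytb, had a log2 fold change of 0.25 (unadjusted p = 0.487, edgeR). Uqcrfs1, the Rieske iron-sulfur protein that takes electrons from ubiquinol, had 107, 155, 172, 202 and 209 CPM in napabucasin livers, against 290, 184, 257, 215 and 247 CPM in vehicle livers. Napabucasin replicates 1 to 3 were below the lowest vehicle value. Its log2 fold change was -0.50 ± 0.22 (SE; unadjusted p = 0.0365, adjusted p = 0.314). Cyc1, the cytochrome c1 that hands electrons to cytochrome c, had 79.5, 103, 105, 130 and 142 CPM in napabucasin livers, against 156, 105, 155, 152 and 199 CPM in vehicle livers. Vehicle replicate 2 was low here, close to napabucasin replicates 2 and 3. The log2 fold change of Cyc1 was -0.46 ± 0.21 (SE; unadjusted p = 0.0492, adjusted p = 0.328).

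The core proteins Uqcrc1 and Uqcrc2, which hold the complex together on its matrix side, had log2 fold changes of -0.43 and -0.44. The 5 small subunits had a median of -0.36. Among them Uqcrh, the hinge protein, had -0.49 (unadjusted p = 0.0839) and Uqcr10, a small membrane subunit, had -0.45 (unadjusted p = 0.0845), while Uqcr11 had -0.36. Uqcrq and Uqcrb, both small subunits near the ubiquinone-binding part, were nearest to 0. Uqcrq had 230, 354, 531, 421 and 464 CPM in napabucasin livers, against 660, 383, 473, 330 and 348 CPM in vehicle livers, a log2 fold change of -0.13 ± 0.26 (SE). Uqcrb had 87.8, 137, 152, 124 and 167 CPM in napabucasin livers, against 237, 99.9, 158, 111 and 116 CPM in vehicle livers, a log2 fold change of -0.11 ± 0.26 (SE). For these 2 genes napabucasin replicate 1 was the lowest and vehicle replicate 1 the highest library, and the other 8 values were mixed. Without replicate 1 of both groups their log2 fold changes were 0.21 for Uqcrq and 0.26 for Uqcrb.

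For cytochrome c, 1 library of each group stood away from the other 8. Cycs, the somatic form of this electron carrier, which also triggers caspase activation when released into the cytosol, had 75.4, 129, 122, 121 and 121 CPM in napabucasin livers, against 184, 120, 106, 110 and 112 CPM in vehicle livers. Replicates 2 to 5 of napabucasin were all above replicates 2 to 5 of vehicle, while replicate 1 of napabucasin was the lowest and replicate 1 of vehicle the highest of the 10 libraries. The log2 fold change was -0.15 ± 0.21 (SE; unadjusted p = 0.479), and 0.14 (unadjusted p = 0.363) without replicate 1 of both groups.

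Complex IV had a median log2 fold change of -0.46 over 12 tested genes, with 3 at an unadjusted p under 0.05. The median was -0.26 with 1 such gene without napabucasin replicate 1, and -0.12 with 1 such gene without replicate 1 of both groups. Cox7c, a small membrane subunit, had 75.3, 103, 145, 128 and 146 CPM in napabucasin livers, against 223, 148, 206, 144 and 175 CPM in vehicle livers. The upper napabucasin values and the lower vehicle values met near 145 CPM. Its log2 fold change was -0.58 ± 0.22 (SE; unadjusted p = 0.0187, adjusted p = 0.278). Cox7a2l, a homologue of subunit 7A that joins complexes III and IV into supercomplexes, had 34.2, 54.1, 60.7, 90.4 and 61.6 CPM in napabucasin livers, against 55.8, 107, 103, 96.8 and 101 CPM in vehicle livers. Vehicle replicates 2 to 5 were above every napabucasin liver, and vehicle replicate 1 alone was low. This gave a log2 fold change of -0.62 ± 0.25 (SE; unadjusted p = 0.0258, adjusted p = 0.293). Cox8a, the form of subunit 8 found in liver, had 63.9, 110, 158, 165 and 197 CPM in napabucasin livers, against 225, 167, 254, 195 and 204 CPM in vehicle livers. It was the one gene of the set with 4 napabucasin livers below every vehicle liver, and its log2 fold change was -0.59 ± 0.27 (SE; unadjusted p = 0.0440, adjusted p = 0.320).

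Cox4i1, the regulatory subunit that binds ATP, had 130, 205, 316, 316 and 385 CPM in napabucasin livers, against 477, 276, 443, 355 and 450 CPM in vehicle livers. Napabucasin replicates 1 and 2 were below all vehicle livers, and the fit gave -0.56 ± 0.28 (SE; unadjusted p = 0.0640). Cox5a, which lies on the matrix side, had a log2 fold change of -0.60, Cox6b1, which lies on the cytochrome c side, -0.48, and Cox7b, a membrane subunit, -0.34. Cox6a1, the liver form of subunit 6A, had the highest level per length of the set by the deposited FPKM, 342 ± 159 in napabucasin and 470 ± 103 in vehicle livers (SD, n = 5 each). Its mean FPKM ranked 103 among 22046 protein-coding genes, and its CPM gave a log2 fold change of -0.45 ± 0.33 (SE). Cox6c, also a membrane subunit, had -0.27, Cox5b, which binds zinc on the matrix side, -0.26 and Cox7a2, the liver form of subunit 7A, -0.25.

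The forms of complex IV subunits known from heart and muscle, lung or testis were nearly silent, in napabucasin and vehicle livers alike. Cox7a1, the heart and muscle form of subunit 7A, was the one that passed the filter, with 1.56, 1.19, 0.885, 0.534 and 1.92 CPM in napabucasin livers, against 1.28, 0.735, 0.568, 1.97 and 1.51 CPM in vehicle livers. The groups covered the same range and the log2 fold change was -0.00 ± 0.43 (SE). Cox7a1 held 2.80% ± 1.84 of the FPKM of Cox7a1 and Cox7a2 in napabucasin and 2.11% ± 1.08 in vehicle livers (SD, n = 5 each; exact permutation p = 0.50, two-sided). Cox4i2 (lung form), Cox6a2 (heart and muscle form), Cox6b2 (testis form) and Cox8b (heart and muscle form) did not pass, with at most 15, 6, 13 and 5 counts in any library. Cox7b2 and Cox8c, both testis forms, had 0 counts in all libraries, as had the second row named Atp5o, which overlaps other genes. Those 7 rows were not tested.

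Complex V had a median log2 fold change of -0.34 over 17 tested genes, the nearest to 0 of the 4 complexes, with 4 genes at an unadjusted p under 0.05. The median was -0.21 with 2 such genes without napabucasin replicate 1, and -0.12 with 1 such gene without replicate 1 of both groups. In the F1 head, where ATP is made, the 5 subunits had a median of -0.38. Atp5a1, the alpha subunit, had 237, 319, 368, 489 and 541 CPM in napabucasin livers, against 473, 366, 686, 636 and 958 CPM in vehicle livers. Atp5b, the beta subunit that holds the catalytic sites, had 341, 469, 474, 619 and 607 CPM in napabucasin livers, against 574, 514, 802, 730 and 1067 CPM in vehicle livers. In both genes vehicle replicates 3 to 5 were above every napabucasin liver and vehicle replicates 1 and 2 were within the napabucasin range. The log2 fold changes were -0.67 ± 0.29 for Atp5a1 (SE; unadjusted p = 0.0370, adjusted p = 0.314) and -0.56 ± 0.25 for Atp5b (SE; unadjusted p = 0.0419, adjusted p = 0.318). Atp5d, the delta subunit of the central stalk, had -0.38 (unadjusted p = 0.0735), Atp5e, the epsilon subunit, -0.26 and Atp5c1, the gamma subunit that turns inside the head, -0.23.

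Outside F1, Atp5k, subunit e of the membrane part, which takes part in pairing ATP synthases, had 5.99, 8.22, 14.5, 10.4 and 12.5 CPM in napabucasin livers, against 17.6, 10.9, 20.5, 12.9 and 19.5 CPM in vehicle livers. Replicates 1, 2 and 4 of napabucasin were below every vehicle liver, and the log2 fold change was -0.66 ± 0.26 (SE; unadjusted p = 0.0233, adjusted p = 0.286). The other members of the membrane part, Atp5l (subunit g), Atp5mpl (a small proteolipid) and Atp5j2 (subunit f), had -0.40, -0.33 and -0.26. The 4 peripheral stalk genes, which keep the head from turning with the ring, had a median of -0.26, from Atp5o, the OSCP that caps the stalk, at -0.37 and Atp5f1 (subunit b) at -0.34 to Atp5h (subunit d) at -0.18 and Atp5j (subunit F6) at -0.11. Atp5s, a coupling factor that is no core subunit, had the highest log2 fold change of complex V, -0.09 ± 0.23 (SE), with 8.90 ± 2.14 CPM in napabucasin and 9.45 ± 2.36 CPM in vehicle livers (SD, n = 5 each).

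Subunit c, which forms the rotating ring in the membrane, is encoded by 3 genes whose mature protein is the same, and their median log2 fold change was -0.51. Atp5g2 had 17.6, 22.3, 31.7, 50.4 and 43.6 CPM in napabucasin livers, against 35.8, 43.4, 69.4, 60.9 and 76.0 CPM in vehicle livers. Replicates 1 to 3 of napabucasin were below every vehicle liver. Its log2 fold change was -0.79 ± 0.29 (SE), with the smallest unadjusted p of the set, 0.0186, and an adjusted p of 0.278; it was -0.75 (unadjusted p = 0.0124) without replicate 1 of both groups. Atp5g3 had 83.9, 175, 225, 246 and 286 CPM in napabucasin livers, against 360, 193, 319, 268 and 301 CPM in vehicle livers, with a log2 fold change of -0.51 ± 0.29 (SE; unadjusted p = 0.105). Atp5g1 had 64.3, 115, 152, 148 and 163 CPM in napabucasin livers, against 226, 98.7, 167, 157 and 160 CPM in vehicle livers, with a log2 fold change of -0.33 ± 0.27 (SE; unadjusted p = 0.236). For these 2 genes vehicle replicate 1 was again the highest library.

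A share within a library does not depend on how libraries are scaled, so the 3 subunit c genes were also set against each other. Atp5g1 held 19.2% ± 1.71 of their FPKM in napabucasin and 16.4% ± 2.04 in vehicle livers, a difference of 2.86 percentage points (SD, n = 5 each; exact permutation p = 0.0476, two-sided, adjusted p = 0.190 over 4 shares tested). Atp5g2 held 14.4% ± 2.69 in napabucasin and 17.4% ± 4.68 in vehicle livers, a difference of -3.07 points (SD, n = 5 each; exact permutation p = 0.254, adjusted p = 0.508). Atp5g3 held 66.4% ± 2.87 in napabucasin and 66.2% ± 2.84 in vehicle livers (SD, n = 5 each; exact permutation p = 0.897). Vehicle replicate 1, with an Atp5g2 share of 9.21% where the other vehicle livers had 18.7% to 20.99%, was the low library. Without it the differences were 3.72 points for Atp5g1 and -5.125 points for Atp5g2, each with an adjusted exact permutation p of 0.0317. That library was singled out after its share was seen, and shares of the same sum are not independent. Both p-values are therefore a description, and with all libraries kept neither share passed 0.05 after adjustment. The smallest p that 5 against 5 allows is 0.00794, a floor that does not hold once a library is left out. Levels of these genes relative to each other depend on the length used: with the shortest principal transcript Atp5g1 held 38.1% in napabucasin and 33.4% in vehicle livers.

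**Figure D4:**
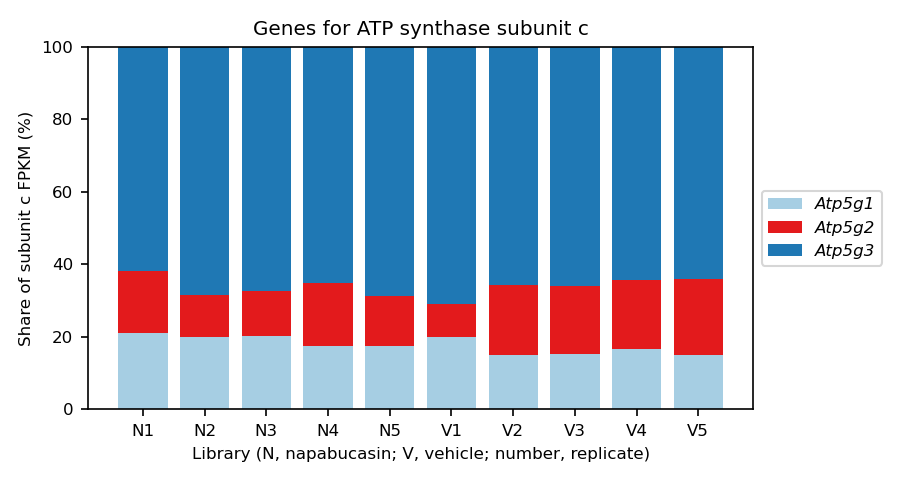
Share of the summed FPKM of the 3 subunit c genes (y axis, percent) held by Atp5g1, Atp5g2 and Atp5g3 in each library (x axis; N, napabucasin; V, vehicle). Atp5g3 is the largest share in every library; the Atp5g2 share is 9.21% in V1 and 18.7% to 20.99% in V2 to V5.

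The set split by which vehicle library was highest. The 16 genes that were not highest in vehicle replicate 1, among them Sdhd, Sdha, Cyc1, Cox7a2l, Cox8a, Cox5a, Atp5g2, Atp5a1 and Atp5b, had a median log2 fold change of -0.57. The 27 highest in that library had a median of -0.34. This split was made after the values were seen, on the same libraries, and is a description.

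Other genes of the same compartment lay mostly below 0 too, and their counts stand against the same shares of all genes, 49.9% below 0 and 5.83% lower at an unadjusted p under 0.05. Of 37 tested nuclear subunits of complex I, the NADH dehydrogenase, 35 had a log2 fold change below 0, 3 of them at an unadjusted p under 0.05, close to the share of all genes, with a median of -0.31. Ndufb8, in the membrane arm, had 41.6 ± 16.2 CPM in napabucasin and 63.7 ± 16.3 CPM in vehicle livers (SD, n = 5 each). Ndufb9, also in the membrane arm, had 46.8 ± 12.5 CPM in napabucasin and 65.1 ± 7.71 CPM in vehicle livers (SD, n = 5 each). Of 40 assembly factors of complexes II to V, 36 were below 0, 8 of them at that p, with a median of -0.24. Fmc1, which serves ATP synthase assembly, had 8.58 ± 2.23 CPM in napabucasin and 14.3 ± 3.82 CPM in vehicle livers. Lrpprc, which stabilizes mitochondrial mRNAs, had 62.4 ± 4.82 CPM in napabucasin and 83.1 ± 13.8 CPM in vehicle livers. Sco1, a copper chaperone for complex IV, had 6.54 ± 1.24 CPM in napabucasin and 9.44 ± 1.74 CPM in vehicle livers (SD, n = 5 each throughout). Their log2 fold changes were -0.73, -0.41 and -0.53.

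The tricarboxylic acid cycle list, which feeds electrons to the chain, had 14 of 18 genes below 0, 5 at an unadjusted p under 0.05, and a median of -0.33. Dlst, of the 2-oxoglutarate dehydrogenase complex, had 126, 112, 99.9, 98.0 and 108 CPM in napabucasin livers, against 133, 144, 138, 142 and 165 CPM in vehicle livers. All 5 napabucasin values were below all vehicle values, and napabucasin replicate 1 was the highest of its group, not the lowest; the log2 fold change was -0.41 ± 0.15 (SE; unadjusted p = 0.0197, adjusted p = 0.278). Sucla2 and Fh1, of succinate and fumarate turnover, had log2 fold changes of -0.65 and -0.53. Of 7 genes for ATP export and phosphate import 6 were below 0 (median -0.15), led by the outer membrane channel Vdac1 at -0.62 (unadjusted p = 0.0417). Of 13 regulators of mitochondrial biogenesis 9 were below 0 and 0 passed that p (median -0.10), with Tfam, which packages and transcribes mitochondrial DNA, at -0.34, Tfb2m, its partner in transcription, at -0.35 and Ppara, a nuclear receptor for fatty acid oxidation, at -0.68 (unadjusted p = 0.0933). Ppara was at 56.2 CPM in vehicle replicate 5 and at 11.99 to 22.3 CPM in the other vehicle livers, with 9.56 to 27.0 CPM in napabucasin livers. No gene of these lists had an adjusted p under 0.05 in edgeR.

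The 6 mitochondrially encoded subunits of complexes III to V did not share the direction of their nuclear partners: 4 had a log2 fold change above 0 and 2 below, with a median of 0.23 and 0 at an unadjusted p under 0.05. mt-Atp8, also of ATP synthase, was at -0.62 ± 0.75 (SE; unadjusted p = 0.423) and mt-Co3, of complex IV, at -0.24 (unadjusted p = 0.691). The level of mt-Atp8 was low and uneven, at 1.38 to 16.2 CPM in napabucasin and 1.65 to 29.9 CPM in vehicle livers. mt-Atp6, subunit a of ATP synthase, had 2511, 1527, 881, 848 and 926 CPM in napabucasin livers, against 1293, 1078, 286, 467 and 242 CPM in vehicle livers (log2 fold change 0.99, unadjusted p = 0.0572). Napabucasin replicates 1 and 2 and vehicle replicates 1 and 2 were the high libraries. The ratio of mt-Atp6 FPKM to Atp5b FPKM was 45.8, 20.3, 11.6, 8.53 and 9.48 in napabucasin livers, against 14.0, 13.0, 2.22, 3.98 and 1.41 in vehicle livers. For mt-Co1 over Cox4i1, both of complex IV, the ratios were 653, 234, 121, 109 and 141 in napabucasin livers, against 236, 42.0, 73.3, 99.0 and 70.7 in vehicle livers. Napabucasin replicate 1 had the highest of each ratio. Libraries were made from poly-A-selected RNA, per the labels' protocols.

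Napabucasin replicate 1 was also low for complex I and ribosomal protein genes, but not for the regulators of mitochondrial biogenesis, where it scored 0.14, the highest of the napabucasin livers, and was the lowest library for 2 of 13 genes. Scored as the mean of centred log2 CPM, the 43 genes had -0.93, -0.32, -0.03, 0.00 and 0.21 in napabucasin livers, against 0.48, -0.18, 0.35, 0.11 and 0.31 in vehicle livers. The 77 cytoplasmic ribosomal protein genes had -0.63, -0.30, 0.10, 0.25 and -0.08 in napabucasin livers, against 0.15, 0.16, 0.27, 0.02 and 0.05 in vehicle livers. Of these 77, 68 had a log2 fold change below 0, 2 at an unadjusted p under 0.05, a lower share than the 5.83% of all genes, with a median of -0.25, and napabucasin replicate 1 was the lowest library for 61. Complex I scored -0.81, -0.31, 0.08, 0.01 and 0.25 in napabucasin livers, against 0.58, -0.24, 0.30, -0.04 and 0.17 in vehicle livers. The mitochondrial and ribosomal RNA shares given above were high in that library too, and their part in the lower level of the respiratory genes was not tested.

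**Figure D5:**
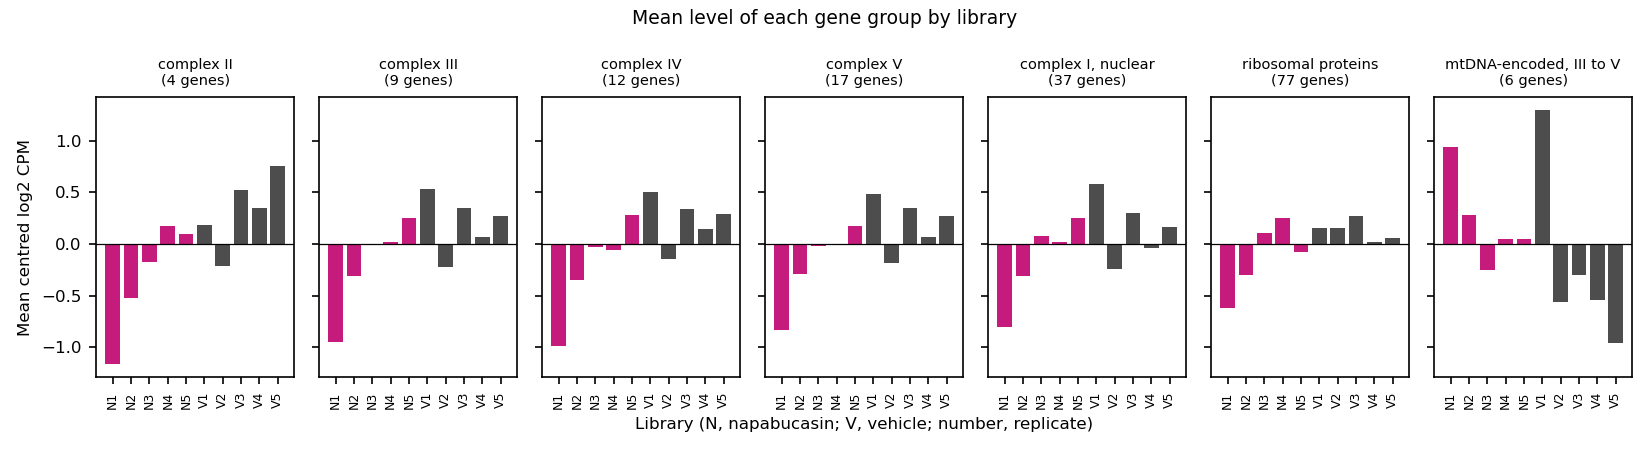
Mean centred log2 CPM of each gene group (y axis) in each library (x axis; N in pink, napabucasin; V in grey, vehicle), for the genes of complexes II, III, IV and V, complex I, ribosomal proteins and the mitochondrially encoded subunits. N1 is the lowest bar in the panels of the nuclear gene groups. It is at -1.16, -0.95, -0.99 and -0.83 for complexes II, III, IV and V and at -0.63 for ribosomal proteins. V1 is the highest bar for the mitochondrially encoded subunits, at 1.30.

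In whole liver, fewer cells of a type and less RNA per cell cannot be told apart. T and B cell markers were higher in napabucasin livers at an unadjusted p under 0.05 for 5 of 6 and 6 of 6 genes. Of all genes tested, 9.34% were higher and 5.83% lower at that p in edgeR, and 1.21% were higher without overlap in CPM. The 6 T cell genes summed to 12.2 to 24.6 CPM in napabucasin and 7.78 to 9.46 CPM in vehicle livers, and the 6 B cell genes to 42.8 to 76.3 CPM in napabucasin and 17.0 to 26.5 CPM in vehicle livers, without overlap in either list. The 6 Kupffer cell genes summed to 460 to 1775 CPM in napabucasin and 232 to 1242 CPM in vehicle livers, the 6 sinusoidal endothelial genes to 145 to 244 CPM in napabucasin and 57.7 to 175 CPM in vehicle livers, and the 6 stellate cell genes to 330 to 825 CPM in napabucasin and 264 to 379 CPM in vehicle livers. Their sums overlapped between groups, and 1 of 6 Kupffer, 3 of 6 sinusoidal and 4 of 6 stellate cell genes were higher at that p. All genes of those 5 lists had log2 fold changes above 0. All 10 hepatocyte genes had log2 fold changes below 0, 1 of them at that p. The 10 muscle genes summed to 0.379 to 5.29 CPM in napabucasin and 0.643 to 50.3 CPM in vehicle livers, with vehicle replicate 5 the highest. Cholangiocyte genes, 4 of 6 with a log2 fold change below 0, summed to 267 to 446 CPM in napabucasin and 216 to 479 CPM in vehicle livers, and erythroid genes to 18.5 to 164 CPM in napabucasin and 14.9 to 191 CPM in vehicle livers. Brown and white adipocyte, testis and pancreas lists were under 18 CPM in every library, with Cyct, Lep and Amy2a5 at 0. The part of these cell types in the lower level of the respiratory genes was not tested.

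Levels between genes carry an error from the length used. The deposited gene length, the union of all exons, was at least 2 times the shortest principal transcript for 20 of the 43 genes, such as 6443 against 544 bases for Atp5l, so its FPKM is low for its CPM. Some genes share their place with another on the opposite strand, and the strand setting of the counting is not given in the sources used here. The overlapping gene's counts came to 20.9% of those of Atp5j (Gabpa), 14.2% of those of Cox6c (Vps13b), 6.19% of those of Cox4i1 (Emc8) and 6.02% of those of Atp5f1 (Wdr77), and reads of such pairs may be exchanged.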

How the data were processed

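Whole-liver RNA from 5 napabucasin and 5 vehicle mice was sequenced. HISAT2 2.0.5, featureCounts 1.5.0-p3 and CASAVA were used on GRCm38 (mm10), per the submitters' processing notes, with the annotation release and strand setting not given in the sources used here. The authors deposited raw read counts per gene and FPKM values. In the deposited FPKM, each library was scaled by a size factor (median of ratios) times the mean library total (geometric), as checked on the values.

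Members and lists were chosen with earlier results of these data known. Counts were fitted over the whole table with edgeR 4.0.16 (R 4.3.3; filterByExpr, 14244 of 54532 genes; TMM; robust quasi-likelihood F test; Benjamini-Hochberg, threshold 0.05), where the common biological coefficient of variation was 0.325. SEs are those implied by the F statistic. DESeq2 1.42.0 and limma 3.58.1 on log2(FPKM + 1) or log2(FPKM + 0.1) were alternatives, with other scalings, filters, left-out libraries and a replicate block. Isoform shares were compared by exact permutation over 252 splits (scipy 1.17.1). The fit was tested on simulated data. P-values rest on the spread among these libraries.

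Genes named with values were all of complex II and, in each other complex, the 4 with the smallest p, that with the highest mean FPKM and that with the highest log2 fold change, plus isoform sets and, per list, the 3 with the smallest p. One gene that this names is not reported here. Others are given by log2 fold change. What equal replicate numbers share is not stated in the labels. Deviations of same-numbered libraries from their group means correlated at 0.154, 0.228, 0.208, 0.270 and 0.278, each over 0.1, and pairing was taken from the data alone. Correlations between differently numbered libraries were not computed, so these values cannot show that equal numbers mark pairs. Results with the replicate block or by same-numbered pairs rest on that reading. Deposited lengths were compared with GENCODE M21. Protein sequences were not used here.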

Additional observations from a re-analysis of the deposited data

Results flagged for a closer look

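Of 72 groups of 5 values checked, 4 had 1 library whose gap to its nearest neighbour was over 0.71 of the group's range, where chance alone gives about 3.6 such groups. Cycs was at 75.4 CPM in napabucasin replicate 1, below the other napabucasin livers at 121 to 129 CPM, and at 184 CPM in vehicle replicate 1, above the other vehicle livers at 106 to 120 CPM. Cox7a2l was at 55.8 CPM in vehicle replicate 1, below the other vehicle livers at 96.8 to 107 CPM. The Atp5g2 share of subunit c FPKM was 9.21% in vehicle replicate 1, below the other vehicle livers at 18.7% to 20.99%. All 4 lie in replicate 1 of a group.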

How the results depend on the processing

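The median log2 fold change of the 43 genes stayed below 0 under every alternative, from -0.55 to -0.16, and 0 genes of the set passed an adjusted p of 0.05 in any. Genes called over the whole table numbered 0 in the reported fit, 209 with DESeq2, 1 with library size only, 1 with limma on log2(FPKM + 0.1), 19 with no filter, 7 without replicate 1 of both groups and 0 to 18 with 1 library left out. The 11 genes lower at an unadjusted p under 0.05 became 5 with library size only, 6 with limma on log2(FPKM + 1) unfiltered, 0 without napabucasin replicates 1 and 2, 4 without replicate 1 of both groups, 15 with the replicate block and 2 to 18 with 1 library left out. The replicate block changed no adjusted call of the set. Of 27 named genes under 23 alternatives, 24 of the resulting log2 fold changes turned above 0. They were Uqcrb at 0.012 and Cox7a1 at 0.054 with library size only. Cox7a1 was at 0.0061, 0.0019 and 0.0019 with the 3 limma fits and at 0.029 with the replicate block. Without napabucasin replicates 1 and 2, Uqcrq was at 0.11, Uqcrb at 0.037 and Cox7a2 at 0.023. Without replicate 1 of both groups, Uqcrq was at 0.21, Uqcrb at 0.26 and Cycs at 0.14. With 1 library left out, the log2 fold change ran from -0.26 to 0.0445 for Uqcrq, from -0.21 to 0.13 for Uqcrb, from -0.21 to 0.0066 for Cycs, from -0.22 to 0.25 for Cox7a1 and from -0.21 to 0.055 for Atp5s. The difference in share ran from 2.4 to 3.72 points for Atp5g1, from -5.125 to -2.18 points for Atp5g2, from -0.412 to 1.41 points for Atp5g3 and from -0.0579 to 1.16 points for Cox7a1. The difference in Atp5g3 share was -1.82 points from counts and -1.32 with shortest principal transcripts. With the replicate block the shares cannot pass 0.05, since 32 sign flips allow no p under 0.0625. The lengths of principal transcripts were chosen after seeing the data. The causes were not tested.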
